A study of Homo sapiens with 4 samples.

Results

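The genes described here encode the aminoacyl-tRNA synthetases, the enzymes that load each tRNA with its amino acid. The set was chosen by name, as 35 gene symbols, and holds 19 genes for cytosolic enzymes and 16 for mitochondrial ones. Each gene was read by the probe sets (groups of short DNA probes on the array) that the platform annotation gives to that gene alone. This found 67 probe sets for 32 genes, 17 cytosolic and 15 mitochondrial, out of 19775 genes measured in all. MARS1, QARS1 and TARS2 had no probe set of their own and have no values here, since each probe set that names them also names a microRNA gene. Every gene was represented by whichever of its probe sets was brightest on average, and all 32 of these had a mean above the median of all probe sets (6.16 on the log2 scale).

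Gene expression was measured on 4 Affymetrix arrays that read transcripts near their 3' end, all from LN-229, a glioblastoma line long kept in culture. Of these, 2 came from cells without treatment and 2 from cells given doxycycline (Doxocyclin in the labels) for 48 h, which turns on WIF1, a WNT inhibitor that cells secrete. The labels call the 2 cultures of each group biological replicates, and the promoter that drives WIF1 and the number of cell clones are not given in the sources used here. No array came from cells given doxycycline without WIF1, so effects of the drug and of WIF1 cannot be told apart. The only WIF1 probe set read 2.98 and 2.90 without induction and 2.93 and 3.03 with it, close to the lowest signals of the array and with overlap, so it did not separate the groups.

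The values are log2 intensities, every difference is the mean of 2 induced arrays less that of 2 controls, and the standard error (SE) of a difference comes from the model fitted to all probe sets. The medians of the arrays ran from 6.15 to 6.19. The markers fixed for these cells were bright for VIM (14.1), FN1 (12.9), NES (11.9), CD44 (11.8) and S100B (11.5) and dim for the glial filament gene GFAP (5.66). Markers of other cells were mixed. PTPRC of leukocytes (3.79), EPCAM of epithelium (3.22) and CDH5 and KDR of endothelium (3.98 and 3.61) were near the low end of the array. The keratin genes KRT18 (11.6) and KRT8 (7.68), PECAM1 (6.91) and VWF (6.50) of endothelium and CD3E of leukocytes (6.72) exceeded 6.16, the median given above. The remaining markers ran from 4.64 (CDH1) to 6.12 (ITGAM), so dim signal did not hold for every marker of these cells. Of the 13 measured markers of these other cells 0 differed at an unadjusted p under 0.05, and S100B was at -0.12 for induced minus control (SE 0.038, limma adjusted p = 0.472).

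Synthetases fall into classes I and II by the fold of their catalytic core, and most amino acids have separate genes for the enzyme of the cytosol and the enzyme of the mitochondrion. GARS1 and KARS1 make the enzyme of both places from the same gene. Mitochondrial synthetases are made in the cytosol from nuclear genes and imported, and there they charge the tRNAs encoded by mitochondrial DNA. When amino acids run short, uncharged tRNA activates the kinase GCN2 (EIF2AK4), which phosphorylates the translation factor eIF2 and so raises the translation of the transcription factor ATF4. ATF4 in turn is known to raise many genes of amino acid supply, a part of the cytosolic synthetases among them.

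No synthetase gene passed the test. Of 54613 probe sets 0 (0%) had a limma p under 0.05 after Benjamini-Hochberg adjustment, and the smallest adjusted p among the 67 synthetase probe sets was 0.472. The differences were small, from -0.17 for SARS2 to 0.16 for TARS1, or at most 1.12-fold up. Over the 17 cytosolic genes the median difference was 0.02, with 10 higher and 7 lower by sign. Without GARS1 and KARS1, which serve both compartments, it was 0.0042, with 8 higher and 7 lower. Both induced arrays lay above both controls in 6 of those 15 genes (40%), against 21.4% of all genes. Over the 15 mitochondrial genes the median difference was -0.01, with 7 higher and 8 lower, and over all 19775 genes it was -0.0030.

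At an unadjusted p under 0.05 stood 4 of the 17 cytosolic genes, all higher (TARS1, NARS1, CARS1 and YARS1), and 4 of the 15 mitochondrial genes, 1 higher (FARS2) and 3 lower (SARS2, CARS2 and IARS2). Over all genes that limit was met by 6.48% higher and 4.73% lower. Bright genes met it more often, with 8.84% higher and 5.86% lower among the 10690 genes at or above the dimmest synthetase. The cytosolic share was thus 23.5% higher and 0% lower, and the mitochondrial share 6.67% higher and 20% lower. The cytosolic genes had means from 8.97 to 13.2, while the dimmest synthetase, PARS2, was at 6.79. No background share given here or below is matched to the cytosolic genes in level. The counts rest on few genes and on the model: with eBayes run without its intensity trend 0 of these 8 genes met the limit, and leaving out each array in turn gave 1 to 3 cytosolic genes higher (1 without the first induced array), 0 mitochondrial genes higher and 0 to 2 lower (0 without either control). Whether the 2 compartments differ was not tested.

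A simpler count compares the arrays directly. Both induced arrays lay above both controls in 8 of 17 cytosolic genes (47.1%) and in 4 of 15 mitochondrial genes (26.7%), against 21.4% of all genes. Both lay below in 4 cytosolic genes (23.5%) and 5 mitochondrial genes (33.3%), against 22.4% of all genes. Among the 10690 genes at or above the dimmest synthetase the shares were 24.9% above and 25.4% below. The mitochondrial shares and the cytosolic share below were thus near or modestly above those of all genes, and the cytosolic share above was the one farthest from it.

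**Figure D1:**
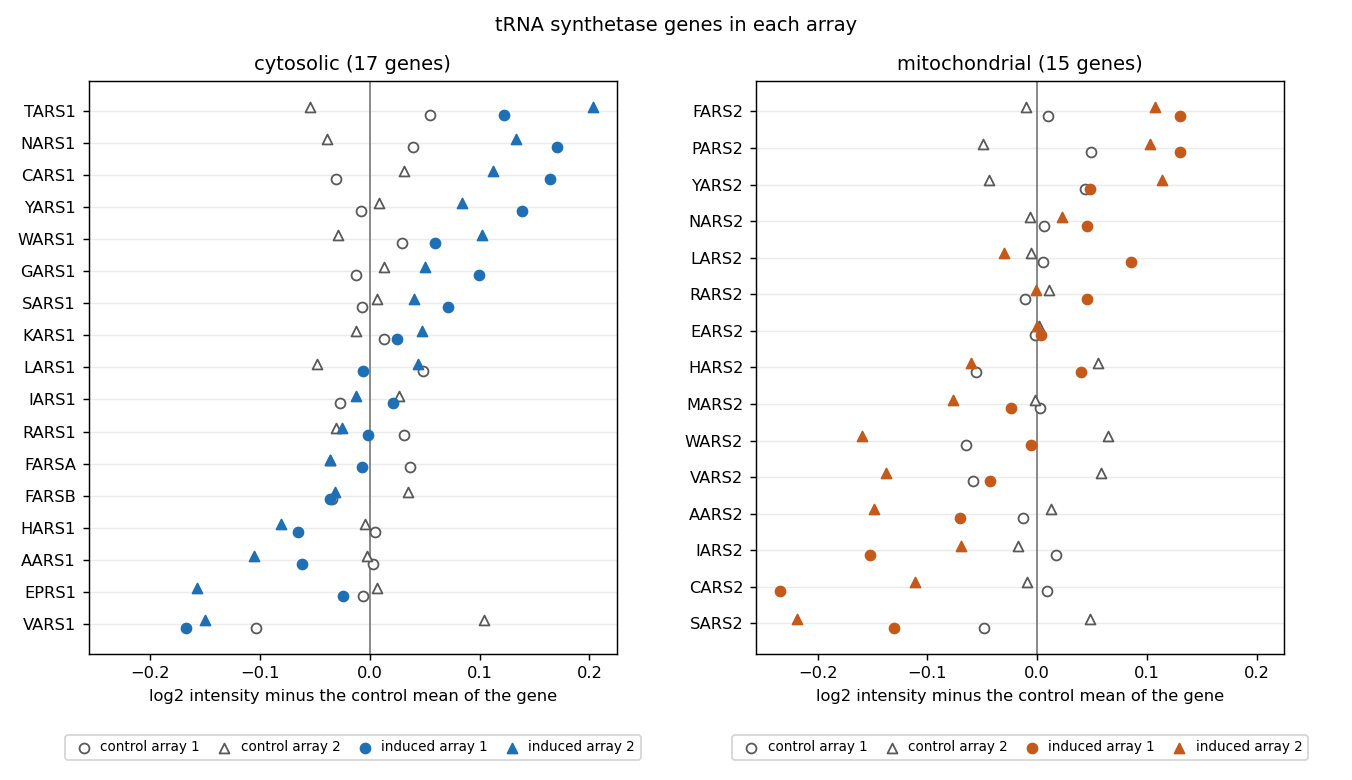
Log2 intensity of each tRNA synthetase gene in the 4 arrays, as the difference from the mean of the 2 controls of that gene; open symbols are controls, filled symbols induced arrays, circles replicate 1 and triangles replicate 2, and genes are ordered by their difference. In TARS1, NARS1, CARS1 and YARS1 both filled symbols lie right of both open ones, and in SARS2, CARS2 and IARS2 both lie left of both.

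The cytosolic gene with the largest positive difference was TARS1, the threonyl-tRNA synthetase. It stood at 10.94 and 10.83 without induction and at 11.01 and 11.09 with it, differing by 0.16 (SE 0.052; adjusted p = 0.472). The gap between the nearest arrays of the 2 groups was smaller than the gap between the 2 controls, although the groups did not overlap. NARS1, which charges asparagine tRNA, stood at 12.52 and 12.45 without induction and at 12.65 and 12.62 with it, differing by 0.15 (SE 0.037; adjusted p = 0.472). Here both induced arrays stood clear of both controls.

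CARS1, the cysteinyl-tRNA synthetase, had like differences on all its probe sets. Its representative stood at 11.86 and 11.92 without induction and at 12.05 and 12.00 with it, differing by 0.14 (SE 0.037; adjusted p = 0.472). Its 3 other probe sets gave 0.12, 0.13 and 0.14, so all 4 pointed up by like amounts. In the probe set at 0.12 (SE 0.10) the groups overlapped. YARS1, which charges tyrosine tRNA, stood at 10.94 and 10.96 without induction and at 11.09 and 11.03 with it, differing by 0.11 (SE 0.038; adjusted p = 0.472). The groups were apart on that probe set, but the other probe set of YARS1 gave -0.07 (SE 0.068), so the direction of this gene depended on the probe set.

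The 2 genes that serve both compartments were slightly higher. GARS1, the glycyl-tRNA synthetase, stood at 12.42 and 12.44 without induction and at 12.53 and 12.48 with it, differing by 0.07 (SE 0.032; adjusted p = 0.503). KARS1, the lysyl-tRNA synthetase, stood at 13.15 and 13.12 without induction and at 13.16 and 13.18 with it, differing by 0.04 (SE 0.027; adjusted p = 0.664). The groups did not overlap in either gene, but in KARS1 the nearest arrays were closer than 1 SE, and its other probe set gave -0.02.

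Of the other cytosolic genes, WARS1 (tryptophan) and SARS1 (serine) were 0.08 and 0.06 higher with no overlap, and LARS1 (leucine) and IARS1 (isoleucine) differed by 0.02 and 0.0042 with overlap. The other probe set of WARS1 gave -0.05 (SE 0.045), with both induced arrays below both controls, so the direction of WARS1 depended on the probe set. VARS1, the valyl-tRNA synthetase, had the most negative cytosolic difference. It stood at 8.95 and 9.16 without induction and at 8.88 and 8.90 with it, differing by -0.16 (SE 0.076; adjusted p = 0.531), and most of that size came from the second control, since without it the difference was -0.05. Its dimmer probe set stood at 7.84 and 7.95 without induction and at 7.68 and 7.59 with it, differing by -0.26 (SE 0.071). Both induced arrays lay below both controls there, and that probe set met the unadjusted limit of 0.05. The counts of genes at that limit use the brightest probe set and so leave it out. Of all 34 cytosolic probe sets, 6 were higher and 1 lower at that limit. EPRS1, the fused enzyme for glutamate and proline, AARS1 (alanine) and HARS1 (histidine) were lower by sign at -0.09, -0.08 and -0.07, with no overlap. The 2 subunits of the phenylalanyl-tRNA synthetase, FARSA (alpha) and FARSB (beta), differed by -0.02 and -0.03 and RARS1 (arginine) by -0.01, all with overlapping groups and within 1 SE of 0.

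Among the mitochondrial genes, SARS2, which charges mitochondrial serine tRNA, stood at 7.97 and 8.06 without induction and at 7.89 and 7.80 with it, differing by -0.17 (SE 0.068; adjusted p = 0.490). CARS2, for cysteine, stood at 9.32 and 9.30 without induction and at 9.08 and 9.20 with it, differing by -0.17 (SE 0.058; adjusted p = 0.472). The induced arrays of CARS2 were below both controls but farther from each other than the controls were, and of its 4 dimmer probe sets 3 pointed down and 1 up, from -0.16 to 0.08. IARS2, for isoleucine, stood at 11.06 and 11.02 without induction and at 10.89 and 10.97 with it, differing by -0.11 (SE 0.043; adjusted p = 0.486). It has 1 probe set, as has SARS2.

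FARS2, the mitochondrial phenylalanyl-tRNA synthetase, which works as a single chain, was the mitochondrial gene higher at that limit. It stood at 9.29 and 9.27 without induction and at 9.41 and 9.38 with it, differing by 0.12 (SE 0.045; adjusted p = 0.486). The arrays within a group lay closer together than 1 SE, but the other 2 probe sets of FARS2 gave -0.07 and 0.07. PARS2 (proline) and YARS2 (tyrosine) differed by 0.12 and 0.08 and NARS2 (asparagine) by 0.03, with no overlap. NARS2 read 10.63 and 10.61 without induction and 10.67 and 10.64 with it, and YARS2 read 8.06 and 7.97 against 8.06 and 8.13, where the lower induced array barely exceeded the higher control. AARS2 (alanine) and MARS2 (methionine) were lower by sign without overlap, at -0.11 and -0.05. In the remaining 6 genes the groups overlapped: VARS2 at -0.09, WARS2 at -0.08, LARS2 at 0.03, RARS2 at 0.02, HARS2 at -0.01 and EARS2 at 0.0018.

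The 2 enzymes for the same amino acid did not differ in a common direction. Among 15 pairings of a cytosolic and a mitochondrial gene, the cytosolic difference was the higher in 7 and the mitochondrial one in 8, with a median of -0.0085 for cytosolic minus mitochondrial. EPRS1 enters that count with both EARS2 and PARS2, and FARS2 with both FARSA and FARSB, so the pairings are not independent. The widest gap was for cysteine, with CARS1 at 0.14 and CARS2 at -0.17. Among the other pairings with the cytosolic gene higher, the widest gaps were for serine, with SARS1 at 0.06 and SARS2 at -0.17, and tryptophan, with WARS1 at 0.08 and WARS2 at -0.08. On its other probe set WARS1 was at -0.05. Proline and phenylalanine went the other way, with the cytosolic genes below 0 and PARS2 and FARS2 each at 0.12, and the gap for proline (-0.21) was wider than that for tryptophan (0.16). The 2 valine genes were both lower by sign and the 2 tyrosine genes both higher. HARS1 and HARS2 lie head to head, with annotated starts 85 bases apart on chromosome 5 in GRCh38.p14, and differed by -0.07 and -0.01.

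**Figure D2:**
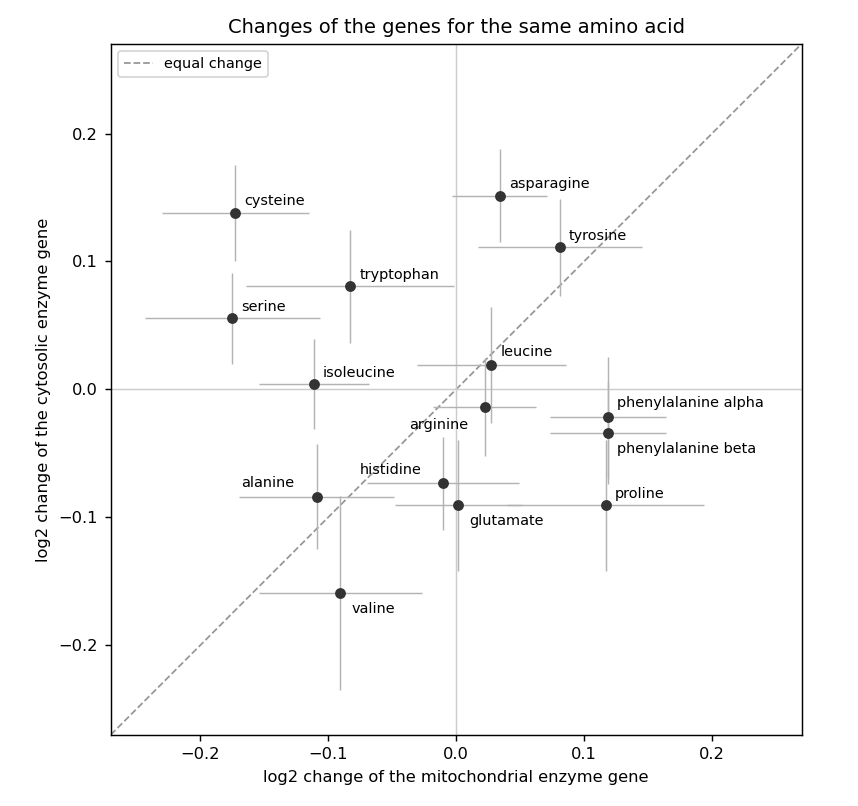
Log2 difference (induced minus control) of the mitochondrial gene (horizontal) against that of the cytosolic gene (vertical) for 15 pairings by amino acid, with SE bars and a dashed line of equal change. There are 7 points above the line and 8 below, cysteine lies farthest from it at 0.14 and -0.17, and 9 pairings have opposite signs.

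Probe sets of the same gene often disagreed. Of the 18 synthetase genes with several probe sets, 8 had the same sign in all of them and 10 had both signs. CARS1 kept its sign over 4 probe sets, and AARS2, WARS2, VARS1, TARS1, SARS1, FARSA and FARSB over 2 or 3. The second probe set of SARS1 gave 0.34. RARS2, with 6 probe sets, spread from -0.28 to 0.16. LARS1, with 4 probe sets, spread from -0.39 to 0.14. EPRS1, with 3, spread from -0.32 to 0.04. EARS2, near 0 on its brightest probe set, had 0.39 (SE 0.098) on another, with 7.72 and 7.53 without induction and 8.12 and 7.92 with it. Over all 67 probe sets an unadjusted p below 0.05 was met by 8 higher and 5 lower ones, shares of 11.9% and 7.46%, against 4.75% and 5.27% of all probe sets. Over all probe sets that is 2593 higher and 2876 lower, and with arrays centred on their medians the split was 3477 to 1869. The lowest value had a wide error (SE 0.23): that probe set of LARS1 read 8.31, 8.21 and 8.26 in 3 arrays and 7.49 in the second induced array.

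**Figure D3:**
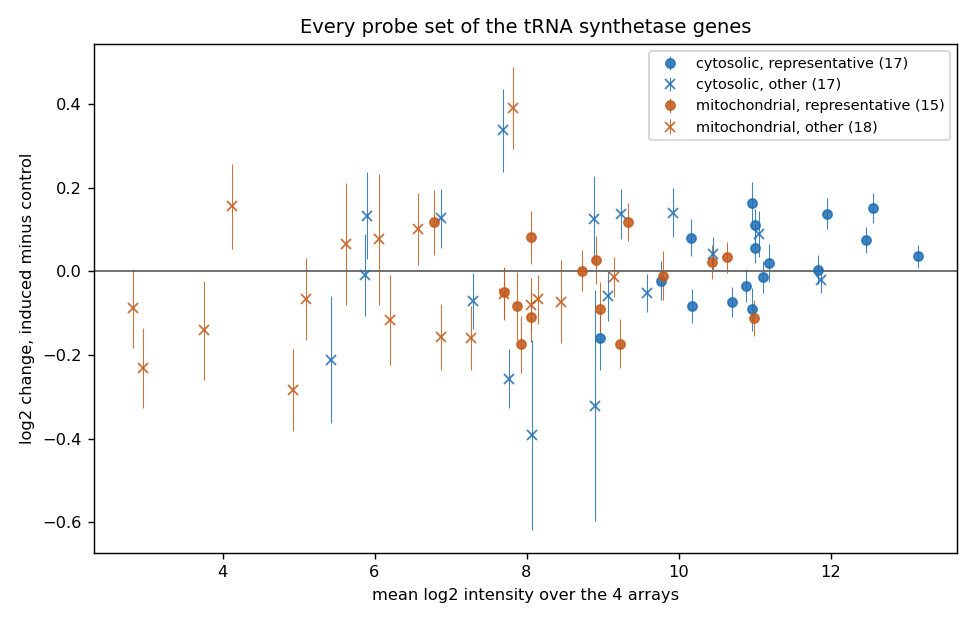
Log2 difference (induced minus control, with SE bars) of all 67 synthetase probe sets against their mean log2 intensity over the 4 arrays, by compartment; dots are the 32 representative probe sets and crosses the 35 others. The dots stay between -0.17 and 0.16, while the crosses reach from -0.39 to 0.39.

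The cytosolic genes were split further into 13 that are known in other cell systems as ATF4 targets and 6 that are not usually listed as such. Of the first, 12 were measured, with a median difference of 0.07, 9 higher and 3 lower by sign. By brightest probe set 4 were higher but 0 lower below an unadjusted p of 0.05. These 4 are the genes named above and 33.3% of the group, against 6.48% of all genes higher and 4.73% lower. The split was made with earlier results of these data known, so that share is not an independent comparison. Of the others, 5 were measured (FARSA, FARSB, HARS1, KARS1 and RARS1), with a median of -0.02, 1 higher and 4 lower by sign, and 0 in either direction at that limit. Thus TARS1, NARS1, CARS1 and YARS1 all belong to the first group, as do VARS1, EPRS1 and AARS1, the lower members at -0.16, -0.09 and -0.08. Among dimmer probe sets of the first group, one of VARS1 (-0.26) was lower at the unadjusted limit of 0.05. Dimmer ones of SARS1 (0.34) and LARS1 (0.14) were higher at it. The median of each gene's deviation from its own mean was -0.03 in both controls and 0.03 and 0.02 in the induced arrays for the first group. For the mitochondrial genes it was -0.0080 and 0.02 without induction and 0.0076 and -0.02 with it, so there the replicates of a group differed by more than the groups. With probe sets averaged per gene the median of the ATF4-linked group was 0.02. The 5 measured enzymes of the multi-synthetase complex (EPRS1, IARS1, KARS1, LARS1 and RARS1), a cytosolic assembly, had a median of 0.0042, and 0 of them met the limit of 0.05. By fold, 16 class I genes had a median of 0.0030 and 15 class II genes one of 0.03.

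ATF4 binds, paired with C/EBP proteins, a composite site whose core is written TGATGNAA. These letters were searched on both strands in RefSeq promoter windows of GRCh38.p14, each from 250 bases before to 50 bases after an annotated start. Windows were present for 30 of the 35 genes, and there were none for AARS2, LARS1, VARS1, VARS2 and YARS1. A gene was counted if any of its windows held the motif. By that rule the motif was in 7 of 16 cytosolic genes (AARS1, CARS1, GARS1, IARS1, MARS1, NARS1 and TARS1) and in 1 of 14 mitochondrial genes (YARS2), against 4.46% of the 27305 genes with a window. CARS1, GARS1 and TARS1 each also had a second window without a match. By window the shares were 33.3% of 21 cytosolic and 5.56% of 18 mitochondrial windows, against 3.62% of 35116 windows. All 7 cytosolic genes belong to the ATF4-linked group, of which 10 had a window, and 0 of 6 other cytosolic genes had the motif. A match is a run of letters and not a shown binding site, and part of the knowledge of which genes ATF4 raises comes from such sites. The matches are shown because 3 of the 4 cytosolic genes at an unadjusted p under 0.05 (CARS1, NARS1 and TARS1) hold one, while YARS1 had no window. Of the 10 cytosolic genes higher by sign 5 hold one, and LARS1 and YARS1 among the 10 could not be searched. Each is given as 30 bases read along the gene's strand with the match in capitals.
CARS1, chr11:3057407-3057436, minus strand: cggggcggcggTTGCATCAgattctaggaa
NARS1, chr18:57621804-57621833, minus strand: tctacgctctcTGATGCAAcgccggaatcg
TARS1, chr5:33440956-33440985, plus strand: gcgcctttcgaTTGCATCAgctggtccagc
GARS1, chr7:30594834-30594863, plus strand: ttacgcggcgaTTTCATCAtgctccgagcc
IARS1, chr9:92293692-92293721, minus strand: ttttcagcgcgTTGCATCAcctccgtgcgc
AARS1, chr16:70289675-70289704, minus strand: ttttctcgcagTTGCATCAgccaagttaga
MARS1, chr12:57488053-57488082, plus strand: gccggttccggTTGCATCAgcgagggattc
YARS2, chr12:32756076-32756105, minus strand: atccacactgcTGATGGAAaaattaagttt

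Counted in bases from the annotated start of the window that holds it, the match begins at -2 in CARS1, -4 in MARS1, -13 in IARS1, -33 in GARS1, -187 in AARS1, -197 in YARS2, 2 in TARS1 and 14 in NARS1. The same letters TTGCATCA, or their reverse complement TGATGCAA in NARS1, stand in 6 of the 7 cytosolic genes. The 6 measured cytosolic genes with a match had a median difference of 0.11, from -0.08 for AARS1 to 0.16 for TARS1, with 5 higher by sign and 3 at an unadjusted p under 0.05. The 8 with a window and no match had a median of -0.02, from -0.09 for EPRS1 to 0.08 for WARS1, with 3 higher by sign and 0 at that limit. IARS1 has the full letters near its start and differed by 0.0042, and AARS1 was lower by sign. VARS1 (-0.16), LARS1 (0.02) and YARS1 (0.11) had no window and are in neither group. Since the matches were shown on account of these same differences, the 2 groups are a description. A link between motif and difference was not tested.

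Other genes of tRNA charging were taken from lists by function, written with earlier results of these data known. AIMP1, a scaffold protein of the multi-synthetase complex, differed by 0.07 (SE 0.047, adjusted p = 0.605). Of 4 measured cytosolic elongation factors and 7 measured genes of mitochondrial charging and elongation, 0 met an unadjusted p under 0.05, with medians of 0.03 and -0.02. Of 8 measured genes of tRNA maturation, editing and selenocysteine charging all were higher by sign, with a median of 0.09, and 2 were higher at that limit (25%, against 6.48% of all genes). MTO1, which modifies mitochondrial tRNAs, stood at 9.59 and 9.54 without induction and at 9.84 and 9.80 with it, differing by 0.26 (SE 0.046; adjusted p = 0.437). The groups were well apart there, but the other probe sets of MTO1 ran from -0.12 to 0.16. TARS3, a second cytosolic threonyl-tRNA synthetase outside the set, was at 0.21 (SE 0.076, adjusted p = 0.477), against 0.03 for its second probe set.

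A list of the eIF2 kinases and their signalling held GCN2, the kinases EIF2AK1, EIF2AK2 and EIF2AK3, which respond to other stresses, and genes around eIF2 and ATF4. Of its 15 measured genes 4 were higher below an unadjusted p of 0.05, with 0 lower, a share of 26.7% against 6.48% of all genes higher and 4.73% lower. The list was written with earlier results of these data known. EIF2AK4 (GCN2) stood at 10.02 and 9.93 without induction and at 10.10 and 10.23 with it, differing by 0.19 (SE 0.060; adjusted p = 0.472). ATF4 itself stood at 12.55 and 12.53 without induction and at 12.60 and 12.68 with it, differing by 0.10 (SE 0.035; adjusted p = 0.472). Both genes were thus higher without overlap. ATF4 differed by less than TARS1 (0.16) and EIF2AK4 by slightly more. The dimmer probe set of EIF2AK4 gave 0.37 (SE 0.11), also without overlap. The eIF2 phosphatase subunits PPP1R15A (GADD34) and PPP1R15B (CReP) differed by 0.30 (SE 0.058) and 0.22 (SE 0.079).

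The 32 other ATF4 targets listed had a median difference of 0.13, and below an unadjusted p of 0.05 stood 14 on the higher side (43.8%) and 1 on the lower (3.12%), against 6.48% and 4.73% of all genes. This list too was written with earlier results of these data known, so its share is not an independent comparison. The 4 with the smallest p were CTH (cystathionine gamma-lyase) at 1.27 (SE 0.084, limma adjusted p = 0.099), ATF3 at 0.57 (SE 0.055, adjusted p = 0.167), DDIT3 (CHOP) at 0.48 (SE 0.052, adjusted p = 0.192) and STC2 (stanniocalcin) at 0.46 (SE 0.047, adjusted p = 0.188). Their other probe sets gave 0.58 for CTH, 0.32 and 0.15 for ATF3 and 0.32 for STC2. On their representative probe sets these 4 genes differed by more than any representative synthetase probe set, where SARS2 was farthest from 0 at -0.17. As a measure of RNA quality, the 3' minus 5' log2 difference of the GAPDH control probe sets was -0.067 and -0.069 without induction and -0.043 and -0.047 with it. For ACTB it was -0.036 and 0.021 without induction and 0.033 and 0.11 with it. Both measures were higher with induction without overlap, but for ACTB the nearest arrays of the groups lay closer together than the replicates of either group. The part of such a shift in differences of the size seen for the synthetases was not tested.

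**Figure D4:**
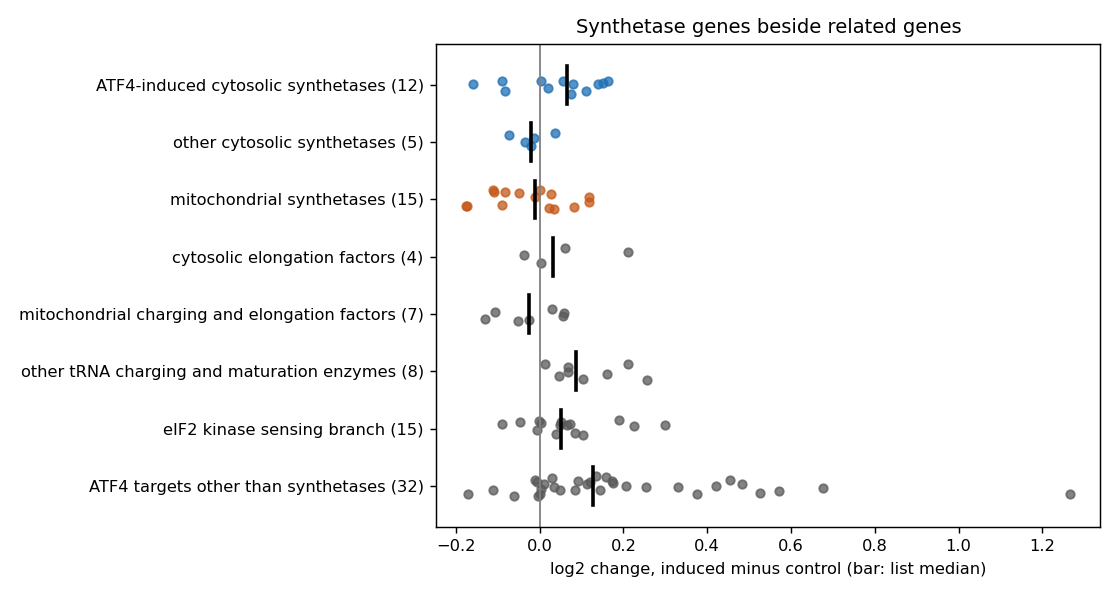
Log2 difference (induced minus control) of each measured gene in 8 lists, with the number of genes in brackets and a black bar at the list median; vertical scatter within a list has no meaning. The ATF4-linked cytosolic synthetases have their median at 0.07, the mitochondrial synthetases at -0.01 and the other ATF4 targets at 0.13, with CTH farthest right at 1.27.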

How the data were processed

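The deposited values are log2 intensities per probe set, which the authors made by RMA (affy package), per the submitters' processing notes (no version is given in the sources used here). RMA equalises the intensity distributions of arrays, so a shift shared by most genes is not seen. Of 54675 rows 62 control probe sets were left out, and the other 54613 were compared between groups in R 4.3.3 by linear models from limma 3.58.1, whose eBayes step let the prior variance follow intensity (2-sided, 6.27 degrees of freedom), with Benjamini-Hochberg adjustment over all of them. The test was tried on simulated data. No filter on low values was used. Gene names came from the platform annotation, which gives 41091 probe sets 1 symbol. Groups came from the sample titles.

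Members, lists and tests were chosen with earlier results of these data known. The lists of ATF4-linked synthetases and of related genes were written from general knowledge. All measured members are named. Values per array are given for members at an unadjusted p under 0.05, the mitochondrial counterparts of such cytosolic members, GARS1, KARS1 and a few members singled out after their values were seen (VARS1, single probe sets of EARS2 and LARS1). From the related lists up to 4 genes of smallest p at that limit and a mean at or above the median are named, with ATF4 and AIMP1. Lists are described by counts and medians, with no set test. Alternatives tried were robust eBayes, eBayes with a constant prior, the replicate number as a block, a filter on dim probe sets, centred arrays, cyclic loess, other choices of probe set, and leaving out each array. With 2 arrays in a group, the array number limits precision, and no exact permutation test could reach 0.05.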

Additional observations from a re-analysis of the deposited data

Results flagged for a closer look

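Besides the synthetase genes, 14 probe sets read RNAs named for their position beside them (GARS1-DT, NARS2-AS1, WARS2-AS1, CARS1-AS1 and FARS2-AS1). In 1 of them, a probe set of GARS1-DT, the divergent transcript beside GARS1, both induced arrays stood above both controls, and the mean difference just exceeded the wider gap between replicates, 0.037. The group means were 6.01 and 6.05, and the difference of 0.039 (SE 0.084, limma adjusted p = 0.900) is within 1 SE of 0. The brightest GARS1-DT probe set gave -0.055. In 6 of the 14 both induced arrays lay below both controls, where 22.4% of all genes did so. That share is of genes, each read by its brightest probe set. The 14 include dim probe sets and several of GARS1-DT, so the count and the share do not compare directly. Those farthest down were a probe set of GARS1-DT at -0.36 (SE 0.15, limma adjusted p = 0.490) and one of WARS2-AS1 at -0.24 (SE 0.093, limma adjusted p = 0.488), both dim, and 2 more of GARS1-DT differed by -0.15 and -0.16.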

How the results depend on the processing

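No synthetase gene passed the adjusted threshold under any of the 12 alternatives, where the lowest adjusted p of a member ran from 0.332 to 0.901. Over all probe sets the count of calls was 0 with a replicate block, 2 with robust eBayes, 5 with centred arrays, 11 with cyclic loess and 9 genes with averaged probe sets, and 0 without any 1 array. At an unadjusted p under 0.05 the replicate block left 2 cytosolic genes higher, 0 mitochondrial higher and 1 lower, against 4, 1 and 3, and the fit without the trend left 0 of each. The replicate numbers share only a label: the deviations of same-numbered arrays correlated at 0.056. Averaged probe sets gave 1 cytosolic gene lower and 0 mitochondrial higher, and centred arrays gave 1 mitochondrial gene lower. Leaving out each array gave 1 to 3 cytosolic genes higher and 0 to 1 lower, and 0 mitochondrial genes higher and 0 to 2 lower.

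The cytosolic median was 0.044 with centred arrays, 0.0015 with cyclic loess, 0.0042 with averaged probe sets, 0.011 with plain probe sets (no suffix letter) and 0.021 to 0.048 without 1 array. EPRS1, GARS1, IARS1, LARS1 and VARS1 have no plain probe set, so the value with plain probe sets leaves them out. The mitochondrial median was 0.014 with centred arrays, -0.050 with averaged probe sets and -0.061 to 0.0039 without 1 array. The ATF4-linked median stayed above 0 in all of them. It was 0.090 with centred arrays, 0.044 with cyclic loess, 0.018 with averaged probe sets and 0.047 to 0.065 without 1 array. With plain probe sets it was 0.081, but there the set of genes changed as well. That value lacks VARS1 (-0.16) and EPRS1 (-0.09), and also GARS1, IARS1 and LARS1, which were higher by sign. The median of the other cytosolic genes was -0.059 with plain probe sets and -0.045 to 0.015 without 1 array.

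Of 32 members 22 kept their sign in every setting that gave them a value. It turned with centred arrays for FARSA (0.0027), HARS2 (0.014) and RARS1 (0.011), with cyclic loess for IARS1 (-0.018), with averaged probe sets for LARS1 (-0.036), LARS2 (-0.022) and RARS2 (-0.085), and with plain probe sets for YARS1 (-0.070). Without 1 array it turned for EARS2 (-0.00042 to 0.0039), FARSA (-0.059 to 0.015), FARSB (-0.069 to 0.00074), HARS2 (-0.065 to 0.045), IARS1 (-0.023 to 0.031), LARS1 (-0.029 to 0.067), LARS2 (-0.031 to 0.085), RARS1 (-0.045 to 0.017) and RARS2 (-0.0012 to 0.046). The cause of these shifts was not tested, beyond the choice of probe set itself. The 2 arrays per group limit all of these values.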
